A study of Mus musculus with 18 samples.

Results

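H19, Mest, Wnt4 and Wt1 were followed across kidneys of young CD1 mice, an outbred strain, kept under lowered or normal oxygen from postnatal day 2. Every probe whose annotation gave one of these symbols and no other was taken, which made 10 of the 16128 probes on the array, for 4 of its 7117 singly named genes: 7 probes of H19 and 1 each of Mest, Wnt4 and Wt1. Animals spent 1, 2 or 4 weeks in constant hypoxia at 11% oxygen, in intermittent hypoxia, where oxygen alternated every 4 min between 21% and 11%, or in normal air (normoxia). Each of the 9 groups had 2 arrays, A and B, so 18 arrays were read.

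Each array set kidney RNA of a mouse labelled male (Cy5) against kidney RNA of a mouse labelled female (Cy3) from the same condition and duration, and the dyes were not exchanged. A value is therefore a ratio between 2 animals of the same group, and a response that both animals shared cancels in it. The deposited values are log2 ratios, and every array had its own median subtracted, so that 0 stands for the median probe. The sources used here do not say which channel was the numerator. Signs below are those of the deposited ratio, and no sign is read as male or female. In whole kidneys, fewer cells of a type and less RNA per cell cannot be told apart.

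These 4 genes are known from the growing kidney and the fetus. H19 is an imprinted long non-coding RNA, abundant in fetal tissues and largely silenced after birth, and its transcript is the host of miR-675. Mest is an imprinted gene expressed from the paternal copy, which encodes a protein with a hydrolase fold and holds miR-335 in an intron. Wnt4 is a secreted ligand that drives nephron progenitors to turn from mesenchyme into epithelium, and Wt1 is a zinc finger transcription factor of the progenitors and later of podocytes. In mice the formation of nephrons ends in the first days after birth, so these arrays, all taken after at least 1 week of exposure, come after it.

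The microRNAs carried by the imprinted pair are printed here because they are the sequence products of H19 and Mest with a known target rule. They are mature sequences from RefSeq on GRCm38.p6, 5′ to 3′, with the seed (bases 2 to 8) in capitals. The first 2 lie inside H19 on the minus strand of chromosome 7, at chr7:142577112-142577133 and chr7:142577078-142577099. The others lie inside Mest on the plus strand of chromosome 6, at chr6:30741314-30741336 and chr6:30741354-30741375. The 4 seeds differ from each other.
mmu-miR-675-5p: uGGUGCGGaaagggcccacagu
mmu-miR-675-3p: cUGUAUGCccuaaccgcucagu
mmu-miR-335-5p: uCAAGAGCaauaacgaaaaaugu
mmu-miR-335-3p: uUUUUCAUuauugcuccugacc
The arrays measured the host transcripts and not these microRNAs.

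Constant hypoxia arrays stood apart from the others before any comparison. They carried values for 81.8% to 88.8% of the probes, against 42.9% to 65.7% on intermittent hypoxia arrays and 41.0% to 67.9% on normoxia arrays, and their medians before centring ran from -1.12 to -0.17, against -0.12 to 0.01 and -0.16 to 0.10. Labels contradict the titles on 2 arrays: intermittent hypoxia 2 weeks A has a female animal named as 1 week, and the treatment described for constant hypoxia 4 weeks A lasted 2 weeks. Eif2s3y, a Y-linked gene, had a ratio above 1 on 3 arrays and below -1 on 4, which leaves the sign of the male to female ratio unsettled. Means and differences over arrays assume that the ratio runs the same way on every array, which was not settled either. Testing required values from at least 15 of the 18 arrays, with no group left without one, and 6518 probes (40.4%) met this. Of the 10 probes, 5 passed: H19 probes 3422 and 9479, and the probes of Mest, Wnt4 and Wt1. The other 5, all of H19, are described without a test. Since ratios carry no levels, the kidney label could not be checked by marker levels. Among the tested probes were 2 of 10 proximal tubule genes (Lrp2 and Miox) and 0 of 4 of the loop of Henle. There were 1 of 4 of the distal tubule, 1 of 8 of the collecting duct and 3 of 10 of podocytes. Kidney stroma had 7 of 9 and endothelium 4 of 7. The adrenal cortex had 2 of 7, and fat and skeletal muscle 0 of 7 each. These counts tell which genes passed the filter and not which tissue was taken.

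Wnt4 had the widest spread of the 5 tested probes, and its 3 values farthest from 0 came from constant hypoxia arrays. Probe 15499 read -0.30 and -0.89 at 1 week, -1.03 and 0.32 at 2 weeks, and -2.71 and -0.26 at 4 weeks in constant hypoxia (arrays A and B). In intermittent hypoxia it read -0.09 and -0.52, -0.36 and -0.47, and -0.43 and 0.00 at the same durations. In normoxia it read -0.38 and 0.30, -0.39 and -0.28, and 0.56 and -0.44. The lowest value of all, -2.71, came from 1 array, constant hypoxia 4 weeks A, while its partner array B lay within the range of the other conditions. The residual SD of Wnt4 within groups was 0.747, and 1.63% of the tested probes had a larger one, against a median of 0.296 over all tested probes.

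The mean Wnt4 ratio of the 6 constant hypoxia arrays was -0.81 ± 0.25 (SE), and it differed from 0 with an adjusted p of 0.0378 (limma, Benjamini-Hochberg over all 6518 probes). It was the 1 call among the 5 probes in that comparison, where 18.7% of all tested probes were called. The call was lost without constant hypoxia 1 week A (-0.91), 1 week B (-0.71), 2 weeks A (-0.59) or 4 weeks A (-0.40), and in the unmoderated test. Without either array of intermittent hypoxia 1 week or 4 weeks the mean stayed at -0.81 and the adjusted p was 0.0504 to 0.0517 in limma. The mean was -0.31 ± 0.25 in intermittent hypoxia and -0.10 ± 0.25 in normoxia (SE, 6 arrays each), and neither passed the test.

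No Wnt4 difference between conditions or durations passed the test. Over all durations constant hypoxia minus normoxia gave a log2 difference of -0.71 ± 0.35 (SE, adjusted p = 0.630 in limma), and at 4 weeks the difference was -1.55 ± 0.61 (adjusted p = 0.677, unadjusted p = 0.0241 in the same limma fit). Within constant hypoxia 4 weeks minus 1 week gave -0.89 ± 0.61 (adjusted p = 0.716). These values rest on the disagreement of the 4-week pair. Without array B the differences were -1.12, -2.77 and -2.12, with adjusted p of 0.00439, 0.000319 and 0.0038 in limma, where the lone array A is assumed to vary like the arrays of other groups. Without array A, whose treatment text disagrees with its title, they were -0.30, -0.32 and 0.34, and none passed. With the median of the 20 nearest probe numbers subtracted from each value they were -0.18, -0.41 and 0.13, and none passed.

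**Figure D1:**
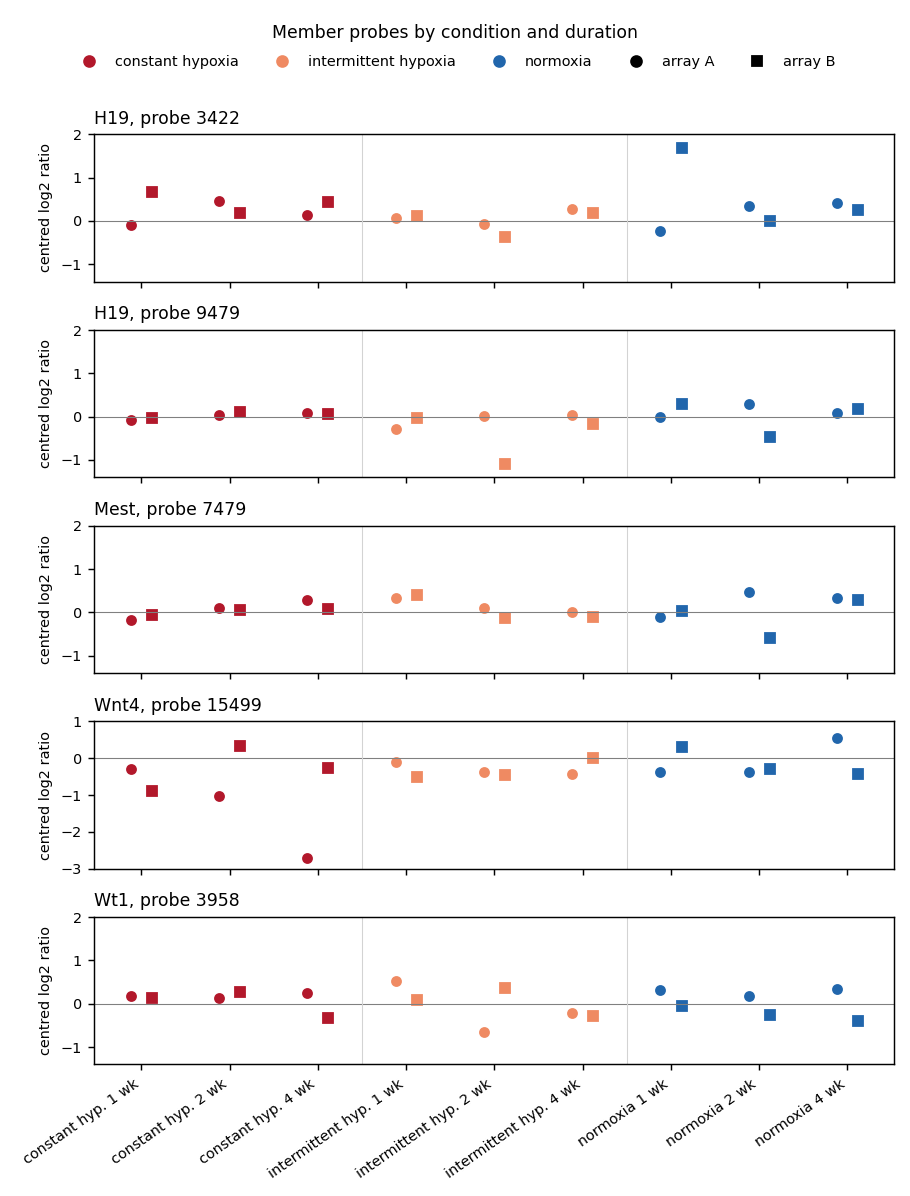
Centred log2 ratio (y axis) of the 5 tested probes on each of the 18 arrays, by condition and duration (x axis); circles are array A and squares array B. Wnt4 at constant hypoxia 4 weeks A (-2.71) and H19 probe 3422 at normoxia 1 week B (1.69) lie apart from their partners, as do H19 probe 9479 at intermittent hypoxia 2 weeks (0.01 and -1.09) and Mest at normoxia 2 weeks (0.46 and -0.58).

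The Wnt4 ratio ran with those of the probes numbered next to it, which belong to other genes. The median of the 20 nearest probe numbers was -2.36 on constant hypoxia 4 weeks A, beside -2.71 for Wnt4, and -0.82 on constant hypoxia 2 weeks A, beside -1.03. Across the 18 arrays Wnt4 and its neighbours had r = 0.93 (0.77 without the 2 farthest arrays), and 6.18% of probes followed their neighbours more closely. After the neighbours were subtracted the SD of Wnt4 over arrays was 0.279, against 0.696 before, and the constant hypoxia mean was -0.11. Of the 3 genes most like Wnt4 over 17 or 18 arrays, Snhg7 (r = 0.97) and Pole4 (0.95) lay 3 probe numbers away and Hnrnph1 (0.94) lay 17 away. These correlations describe points that share their arrays, and the part of probe position in the Wnt4 ratio was not tested.

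**Figure D2:**
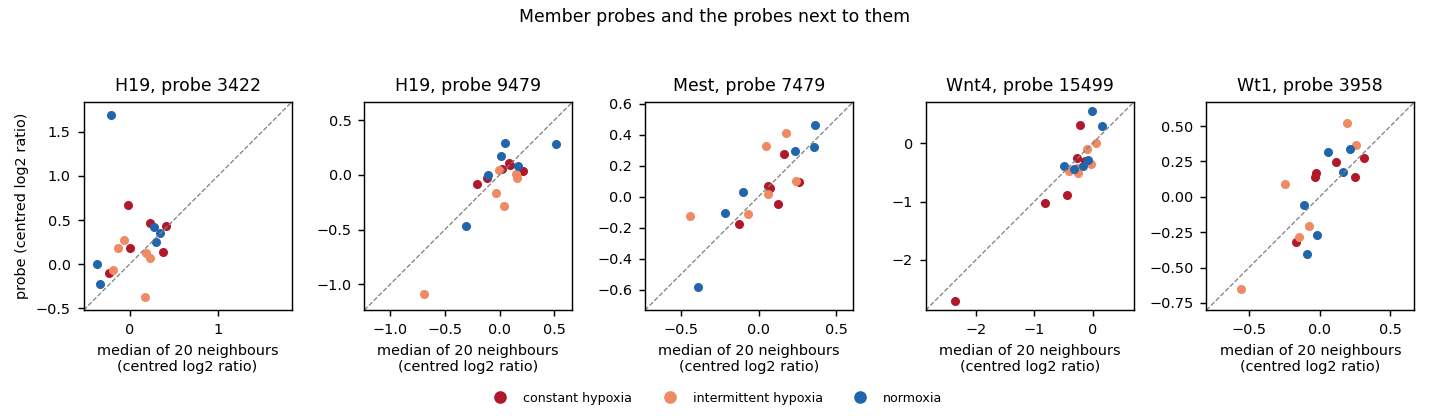
Centred log2 ratio of each tested probe (y axis) against the median of its 20 nearest probe numbers (x axis), 1 point per array and a dashed line of equality. Wnt4 (r = 0.93), H19 probe 9479 (0.84), Mest (0.81) and Wt1 (0.81) run along the line, while H19 probe 3422 (0.04) does not over all arrays. Without its 2 farthest arrays probe 3422 had r = 0.58, beside 0.49 for probe 9479 on the same measure.

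H19 was read by 7 clones, and they did not behave as 1 measurement. Probes 3422 and 9479 had values on all 18 arrays, 2041 on 13, 8468 and 10010 on 11 each, 5978 on 7 and 10499 on 5. Probes of 1 gene share their target and are not replicates. Among the 15 pairs with enough shared arrays, r ran from -0.04 (probes 2041 and 9479) to 0.93 (5978 and 10010), with a median of 0.62. Without normoxia 1 week B the median was 0.28. Probes 8468 and 10010 had r = 0.90 over 11 arrays, and 0.78 without that array. Some other pairs lost more. Without that array r was 0.23 for probes 3422 and 10010 (0.78 with it) and 0.10 for 3422 and 8468 (0.65). It was -0.09 for 2041 and 3422 (0.48) and 0.23 for 9479 and 10010 (0.62). The 2 tested probes, 3422 and 9479, lost nothing, with r = 0.56 over 18 arrays and 0.605 without that array. Probe 5978 had no value there, so its pairs did not change.

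H19 probe 3422 read -0.10 and 0.67 at 1 week, 0.47 and 0.18 at 2 weeks, and 0.14 and 0.43 at 4 weeks in constant hypoxia. In intermittent hypoxia it read 0.07 and 0.12, -0.06 and -0.37, and 0.27 and 0.18. In normoxia it read -0.23 and 1.69, 0.35 and 0.00, and 0.42 and 0.25. The conditions overlapped, and the 1 high value was normoxia 1 week B. The log2 difference from normoxia was -0.38 ± 0.25 in intermittent hypoxia and -0.12 ± 0.25 in constant hypoxia (SE, adjusted p = 0.996 and 0.922 in limma). Without normoxia 1 week B these differences were -0.06 and 0.20. The normoxia mean was 0.41 ± 0.18 (SE, adjusted p = 0.200 in limma), and it passed at 0.73 (adjusted p = 0.0315) without normoxia 1 week A, where the lone array B, at 1.69, is assumed to vary like the arrays of other groups.

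H19 probe 9479 stayed closer to 0. It read -0.09 and -0.02, 0.03 and 0.11, and 0.09 and 0.06 at 1, 2 and 4 weeks in constant hypoxia. In intermittent hypoxia it read -0.29 and -0.03, 0.01 and -1.09, and 0.04 and -0.17, and in normoxia 0.00 and 0.29, 0.28 and -0.47, and 0.08 and 0.17. The lowest value was intermittent hypoxia 2 weeks B, where the 20 neighbouring probes had a median of -0.69. Neighbours and probe had r = 0.84 (0.49 without the 2 farthest arrays), and 20.4% of probes had a larger r. At 2 weeks the log2 difference of intermittent hypoxia from normoxia was -0.45 ± 0.32 (SE, adjusted p = 0.576 in limma). It was -0.99 (adjusted p = 0.0431 in limma) without intermittent hypoxia 2 weeks A, the array whose female channel is named a 1-week animal. The 4 minus 2 weeks difference (1.02) and the mean (-0.44) of intermittent hypoxia also passed without it. In these the lone array B, at -1.09, is assumed to vary like the arrays of other groups.

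On normoxia 1 week B the H19 clones were high together, apart from probe 9479. Their ratios there were 2.03 for probe 10010, 1.91 for 2041, 1.69 for 3422, 1.20 for 8468 and 0.29 for 9479. Thus 4 of the 5 H19 probes with a value exceeded 1, where 0.653% of the tested probes did on that array. Of those 4 only probe 3422 was itself tested, so the share comes from probes with fewer missing values. The neighbours of probes 3422, 8468 and 10010 read -0.21, 0.00 and -0.17 there, and those of 2041 read 0.49. The partner array, normoxia 1 week A, gave 0.10 for probe 10010 and 0.17 for 8468. On constant hypoxia 1 week B 5 of 7 H19 probes exceeded 0.5, where 3.57% of tested probes did. Of those 5 again only probe 3422 was tested. On neither array was the share computed over all probes with a value.

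Most of the measured transcripts of the liver were high on the same arrays. On normoxia 1 week B the plasma protein gene Alb (albumin) read 5.30, the apolipoprotein gene Apoa1 4.67, the protease inhibitor Serpina1e 3.93 and the thyroxine carrier Ttr 3.12. Over the 7 measured genes of a 37-gene liver list the median was 3.12 there, with 6 of 7 above 1. On constant hypoxia 1 week B the median was 1.11 with 4 of 7 above 1, and the other 16 arrays had medians of -0.24 to 0.93. Apob read only 0.36 on normoxia 1 week B, and Mat1a read -0.80 on constant hypoxia 1 week B. Alb also read 2.77 on normoxia 2 weeks A and 1.26 on normoxia 1 week A, where the H19 medians were 0.35 and 0.05. The median of the H19 probes and that of the liver genes had r = 0.79 over 18 arrays, 0.35 without normoxia 1 week B and 0.05 without both arrays. The liver list was made after Serpina1e and Apoa1 had been found among the 3 genes most like H19 probe 3422, with r = 0.78 and 0.76 beside 0.82 for Npm1, a nucleolar protein. Those 3 values were 0.22, 0.16 and 0.41 without normoxia 1 week B, and the part of liver transcripts in the H19 ratio was not tested.

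Under constant hypoxia H19 probes 8468 and 10010 ran with some genes of the adrenal cortex, the steroid-making gland that borders the kidney. They ran with liver genes on those arrays as well, with the values given below. Probe 8468 read 0.08 and 0.57 at 1 week, -0.37 and 0.32 at 2 weeks, and -0.32 and -0.40 at 4 weeks. Cyp11a1, the first enzyme of steroid synthesis, read 1.57 and 2.96, -4.25 and 3.43, and -4.80 and -3.58 on the same arrays (probe 13396). The signs matched on all 8 arrays that had both, and r was 0.94 over the 6 constant hypoxia arrays and 0.73 over all 8. Spearman's rho was 0.71 and 0.74. The lowest value of probe 8468, -0.76, came from intermittent hypoxia 1 week A, where Cyp11a1 read -0.20. A second Cyp11a1 probe, 12281, stayed between -0.39 and 0.32.

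The later steroid enzyme Hsd3b1, as the mean of its probes, had r = 0.92 with probe 8468 over those 6 arrays and 0.68 over 11. For probe 10010 the values were 0.72 over 6 arrays and 0.60 over 11, and for probe 5978 r was 0.78 over 7 arrays. Probe 2041 had r = 0.67 with Hsd3b1 over the 6 constant hypoxia arrays. Over those arrays probe 3422 had r = 0.01 with Hsd3b1 and -0.07 with Cyp11a1, and probe 9479 had -0.27 and -0.33. Over the same 6 arrays the liver genes Alb and Apoa1 had r = 0.67 and 0.86 with probe 8468. With probe 10010 they had 0.81 and 0.79, beside 0.72 for Cyp11a1. The adrenal transcription factor Nr5a1 read 0.49 and -0.31 on the 4-week constant hypoxia arrays, where Cyp11a1 read -4.80 and -3.58. Wnt4, which the adrenal cortex also expresses, had r = 0.61 with the mean of the Hsd3b1 probes over all 18 arrays (Spearman's rho 0.43). Over the 6 constant hypoxia arrays r was 0.65 (rho 0.71). Of the 7 adrenal genes listed 5 had a probe, and the range of their median over arrays was -0.50 to 0.92 in constant hypoxia, -0.49 to 0.86 in intermittent hypoxia and -1.09 to 0.40 in normoxia. The markers' part in the H19 and Wnt4 ratios was not tested.

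**Figure D3:**
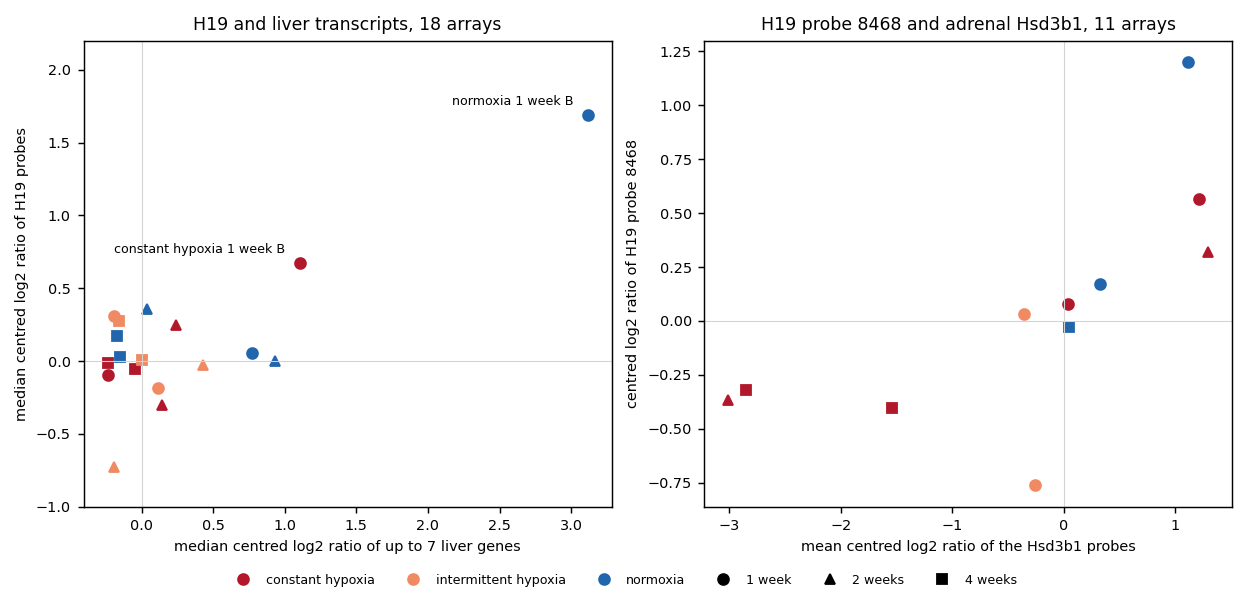
Left, the median centred log2 ratio of the H19 probes (y axis) against that of up to 7 liver genes (x axis) on 18 arrays. Right, H19 probe 8468 (y axis) against the mean of the Hsd3b1 probes (x axis) on the 11 arrays with both. Probe 8468 is drawn because its r with Hsd3b1 over the constant hypoxia arrays was the highest among the H19 probes (0.92, beside 0.01 for probe 3422 and -0.27 for 9479). On the left normoxia 1 week B and constant hypoxia 1 week B lie apart from the rest, and on the right the 3 lowest Hsd3b1 values belong to constant hypoxia arrays with H19 ratios of -0.32 to -0.40.

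The other untested clones followed no single course. Probe 2041 read 0.27 and 1.07, -0.67 and -0.44, and -0.70 and -0.05 at 1, 2 and 4 weeks in constant hypoxia. It had 3 values in intermittent hypoxia, of 0.39 to 0.97, and 4 in normoxia, of -1.21 to 1.91. Probe 10010 read -0.25 and 0.76, -0.27 and 0.53, and -0.01 and -0.43 in constant hypoxia. Probe 10499 was below 0 on each of its 5 arrays, from -0.92 to -0.18, and its neighbours also lay below 0 on those arrays.

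**Figure D4:**
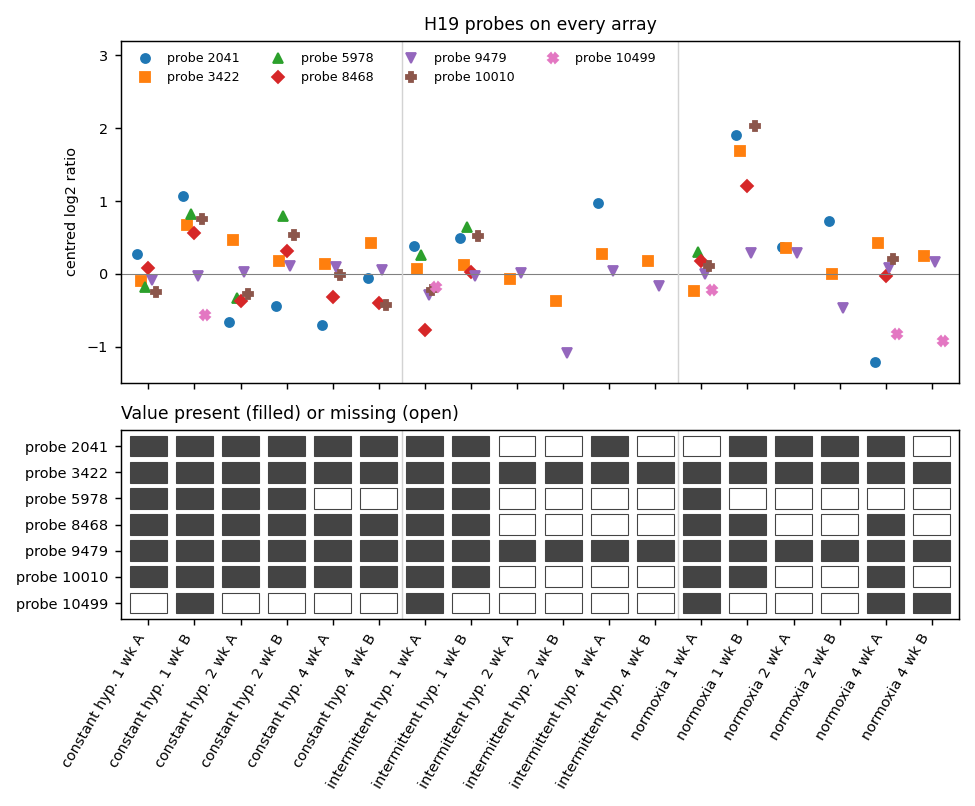
Centred log2 ratio of all 7 H19 probes (y axis) on the 18 arrays in order of condition, duration and array (x axis), 1 marker per probe, with filled squares in the lower panel where a probe had a value. At normoxia 1 week B 4 of 5 probes exceed 1, and several probes have no point on the 2-week and 4-week arrays of intermittent hypoxia and normoxia.

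Whether an H19 spot carried a value at all differed with duration. In constant hypoxia 92.9%, 85.7% and 71.4% of H19 spots had a value at 1, 2 and 4 weeks, beside 86.3%, 88.6% and 82.4% of all spots. In intermittent hypoxia the shares were 92.9%, 28.6% and 35.7%, beside 64.2%, 43.7% and 57.2% of all spots. In normoxia they were 78.6%, 42.9% and 64.3%, beside 65.4%, 48.2% and 61.5%. Each H19 share rests on 14 spots, and the widest gaps were in intermittent hypoxia, above the share of all spots at 1 week and below it at 2 and 4 weeks.

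The loss fell on particular clones. Under intermittent hypoxia and normoxia together, probe 5978 had a value on 3 of 4 arrays at 1 week and on 0 of 8 later ones. Probes 8468 and 10010 each had 4 of 4 and 1 of 8. Of 9715 probes with a value on at least 3 of those 4 arrays, 337 (3.47%) had at most 1 of the 8 later ones, and among H19 probes 3 of 6 did. This limit was chosen after the H19 pattern was seen, so no test is given, and the sources used here do not say why a spot lacks a value. Mest, Wnt4 and Wt1 had values on all 18 arrays.

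Mest, the other imprinted gene, had the smallest spread within groups of the 5 tested probes (residual SD 0.263). Probe 7479 read -0.18 and -0.05, 0.09 and 0.06, and 0.28 and 0.07 at 1, 2 and 4 weeks in constant hypoxia. It read 0.32 and 0.41, 0.10 and -0.12, and 0.02 and -0.11 in intermittent hypoxia, and -0.11 and 0.03, 0.46 and -0.58, and 0.32 and 0.29 in normoxia. At 1 week both intermittent hypoxia arrays lay above both normoxia arrays, and at 4 weeks both lay below. The 4 minus 1 week difference was -0.41 ± 0.28 in intermittent hypoxia and 0.35 ± 0.28 in normoxia (SE). Their difference, -0.76 ± 0.39, did not pass (adjusted p = 0.611 in limma) and ran from -0.82 to -0.69 when each array was left out in turn. With the median of the 20 neighbouring probes subtracted the intermittent hypoxia difference was -0.29, the normoxia difference -0.16 and the difference between them -0.14. Over all durations Mest differed from normoxia by -0.02 ± 0.16 in constant and 0.03 ± 0.16 in intermittent hypoxia.

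Mest also ran with its neighbours (r = 0.81, and 0.70 without the 2 farthest arrays). Following neighbours was common on these arrays, with a median r of 0.65 and an upper quartile of 0.81 over 6228 probes, and 25.5% of probes had a larger r than Mest. The 3 genes most like it were Rpl4, a ribosomal protein (r = 0.89), Marchf6, a ubiquitin ligase (0.87), and Adipor2, an adiponectin receptor (0.86). The last 2 lay 3 and 1 probe numbers away, and Rpl4 lay 4004 away.

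Wt1 was near 0 in each condition. Probe 3958 read 0.17 and 0.14, 0.14 and 0.27, and 0.25 and -0.32 at 1, 2 and 4 weeks in constant hypoxia. It read 0.52 and 0.09, -0.65 and 0.36, and -0.20 and -0.28 in intermittent hypoxia, and 0.31 and -0.06, 0.18 and -0.27, and 0.34 and -0.41 in normoxia. The conditions overlapped at each duration. The mean ratio was 0.11 ± 0.14 in constant hypoxia, -0.03 ± 0.14 in intermittent hypoxia and 0.02 ± 0.14 in normoxia (SE). Both 4-week intermittent hypoxia values were below 0 and both 1-week values above it, a log2 difference of -0.55 ± 0.34 (adjusted p = 1.00 in limma). Wt1 had r = 0.81 with its neighbours, and 25.4% of probes had a larger one. The genes most like it were Rpsa (r = 0.89), Plat (0.85) and Pcolce (0.82), a ribosomal protein, a plasminogen activator and a collagen-processing factor.

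Across conditions none of the 5 probes passed in any of the 9 differences between conditions, by limma or by the unmoderated test. At an unadjusted p under 0.05, limma gave 1 of the 45 estimates (Wnt4 at 4 weeks of constant hypoxia) and the unmoderated test 0. By limma 7.21% of all tested probes had such a p in that comparison, and 2.47% to 12.9% over the 9. Among all tested probes 0% were called for constant hypoxia minus normoxia over all durations, and 0%, 0.0153% and 0.0614% at 1, 2 and 4 weeks. For intermittent hypoxia minus normoxia the shares were 0% over all durations and 0%, 0.138% and 0% at 1, 2 and 4 weeks, and for intermittent minus constant hypoxia 0.046%. The count of 0 among 5 is thus close to these background shares.

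Over time none of the 5 probes passed in any of the 9 differences between durations, nor in the 2 tests of whether the 4 minus 1 week difference changed with hypoxia. Limma and the unmoderated test gave 0 of these 45 and 10 estimates an unadjusted p under 0.05, where limma gave 2.72% to 12.2% and 3.51% to 8.59% of all tested probes one. In constant hypoxia and in normoxia 0% of all tested probes were called in each of the 3 steps, and in intermittent hypoxia 0.046% for 2 minus 1 week, 0.0307% for 4 minus 2 weeks and 0% for 4 minus 1 week. Both tests of a changed course called 0% of all probes. For the means, 1 of 5 passed in constant hypoxia, and 0 of 5 passed in intermittent hypoxia (5.58% of all probes) and in normoxia (3.61%). There limma gave 0 of 5 an unadjusted p under 0.05 in intermittent hypoxia and 1 of 5 in normoxia, beside 24.7% and 21.5% of all tested probes, and the unmoderated test gave 0 of 5 in both. With 2 arrays a group, the SE of a difference at 1 duration was 0.28 to 0.61, so a log2 difference of that order was not detectable.

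No pair of the 4 genes passed the test of co-variation over the arrays. With the 2 tested H19 probes averaged, Pearson r ran from -0.17 (H19 and Wt1) to 0.34 (H19 and Mest) over the 6 pairs and 18 arrays. The permutation test gave H19 and Mest p = 0.164, and Spearman's rho was 0.41 (permutation p = 0.0889). The smallest adjusted p over the 6 pairs was 0.745. Between the imprinted genes r was 0.33 in constant hypoxia, 0.40 in intermittent hypoxia and 0.45 in normoxia (6 arrays each), and 0.54 without the 2 arrays farthest from the H19 median.

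The pathways around these genes gave a like picture in the 2 hypoxia differences over all durations and the 3 differences between 4 and 1 week: 0 genes of any list passed in either direction by limma. At an unadjusted p under 0.05, it gave 1 of 30 probe estimates for nephron progenitors, 1 of 25 for Wnt4 signalling, 1 of 30 for Wt1 partners, 5 of 70 for imprinted genes and 3 of 40 for the growth factor axis, over the 5 comparisons. Of all tested probes 7.95% and 4.27% had such a p in the constant and intermittent hypoxia differences, and 10.2%, 2.72% and 8.59% in the 4 minus 1 week differences of constant hypoxia, intermittent hypoxia and normoxia. Of 41 genes of nephron progenitors and their induction 5 were tested, and their median difference ran from -0.21 to 0.08 over these comparisons. Of 31 genes of Wnt4 signalling 4 were tested (-0.18 to 0.11), and of 19 partners and targets of Wt1 6 were tested (-0.14 to 0.02). Of 10 podocyte genes 3 were tested (-0.21 to 0.05). The medians over all tested probes ran from -0.05 to 0.02. Ctnnb1, the beta-catenin through which Wnt signals are carried, had the smallest p of the first 2 lists, -0.94 ± 0.31 for 4 minus 1 week of constant hypoxia (adjusted p = 0.416 in limma). The insulin-like growth factor receptor Igf1r had -1.12 ± 0.47 there (adjusted p = 0.434).

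Of 39 imprinted genes of the fetal growth network 14 were tested, with medians of -0.25 to 0.10. Copg2, which lies beside Mest, had -1.18 ± 0.33 for 4 minus 1 week of normoxia (adjusted p = 0.389 in limma). Igf2r, the receptor that clears IGF2, had 0.70 ± 0.24 and the tetraspanin Cd81 had -1.77 ± 0.62 for 4 minus 1 week of constant hypoxia (adjusted p = 0.416 for both). Necdin (Ndn) had -0.46 ± 0.21 for constant hypoxia minus normoxia (adjusted p = 0.619). Of 16 genes of the growth factor axis 7 were tested, with medians of -0.10 to 0.14, and the binding protein Igfbp4 had 0.72 ± 0.26 for 4 minus 1 week of constant hypoxia (adjusted p = 0.416).

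In the means against 0 far more probes were called: 18.7% of all tested probes in constant hypoxia, 5.58% in intermittent hypoxia and 3.61% in normoxia. The lists held calls there too, and no list was tested against these shares. Tested probes numbered 14 for imprinted genes, 10 for kidney stroma, 8 for the growth factor axis and 6 for nephron progenitors. Wnt4 signalling had 5, the proximal and distal tubule 3 each and erythroid cells 2. In constant hypoxia the transcription factors Tcf21 (-0.90) and Emx2 (-0.72), the kinase Gsk3b (-0.75), the imprinted genes Cd81 (-1.17), Sgce (-0.81) and Kcnq1 (-0.80), and the binding proteins Igfbp3 (-0.39) and Igfbp5 (-0.43) were below 0. So were the fibroblast collagens Col3a1 (-0.28) and Col1a2 (-0.77) and the globin Hbb-b1 (-1.43), a marker of red cells. The probe of Col1a2 (15508) was among the 20 nearest in number to that of Wnt4 (15499). Those of Hbb-b1 (14464), Cd81 (15078), Sgce (15981), Emx2 (15984) and Kcnq1 (16111) were not among these 20. Neither were those of Ctnnb1 (14720) and Igf1r (15352), given above. Still farther away were Igfbp3 (4511), Col3a1 (6466), Gsk3b (10466), Tcf21 (12587) and Igfbp5 (13496). The part of probe position in the values of these list genes was not tested. The lower of the 2 tested erythroid probes read -4.10 on constant hypoxia 4 weeks A, the array where Wnt4 read -2.71. The 2 did not move alike. For 4 minus 1 week of constant hypoxia Hbb-b1 had -2.15 ± 0.81 and the other, Slc4a1, -0.00283 ± 0.23 (SE, adjusted p = 0.420 and 0.998 in limma). Slc4a1 was also the 1 tested gene of the collecting duct list, so it does not mark red cells alone. The part of blood in the Wnt4 ratio was not tested. In intermittent hypoxia the RNA-binding protein Igf2bp3 (0.51) and the distal tubule calcium binder Calb1 (0.49) were above 0, and the proximal tubule receptor Lrp2 was below it (-0.44). In normoxia Lrp2 was below 0 as well (-0.49). Some of these genes had other tested probes, which were called in no mean. They were probes 1839 and 4340 of Calb1, 13687 of Lrp2, 6092 of Gsk3b and 1368 of Col3a1. For constant hypoxia minus normoxia the 2 Gsk3b probes differed in sign, with -0.48 for 10466 and 0.30 for 6092.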

How the data were processed

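Deposited values were log2 ratios, 1 for each probe on each array, from two-colour cDNA arrays hybridised with 60 ug of kidney RNA per channel, per the labels' protocols. The sources used here do not give the background correction, the normalization or the numerator, and intensities were not used. The base was inferred from the values, many of which were base 2 logs of whole-number ratios. Probe names came from the platform annotation.

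Each array was centred on the median of the 6518 kept probes. Group means of 18 arrays were fitted per probe with limma 3.58.1 (R 4.3.3, lmFit and eBayes, two-sided, Benjamini-Hochberg over all kept probes, threshold 0.05) and 23 comparisons were made. Correlations used 100000 permutations (scipy 1.17.1). The fit was tested on simulated data. Labels name different animals for the arrays of a group, and A and B pair nothing across groups.

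The members, lists and tests were chosen with earlier results of these data known. List genes are named where they passed, or otherwise by smallest p, up to 2 per list and comparison. The genes most like a probe are the 3 with the highest r over at least 15 arrays. Alternatives covered centring, filter, gene averaging, probe position, moderation, scale, a replicate block and left-out arrays.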

Additional observations from a re-analysis of the deposited data

Results flagged for a closer look

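For each tested probe the 6 arrays of a condition, and groups of at least 4 values for the other H19 clones, were checked for a single array far from the rest. Of 20 such sets 3 had one. The nominal rate of the rule is about 1 in 20. The sets share arrays and several are clones of H19, so the count is not a test against chance. H19 probe 3422 read 1.69 on normoxia 1 week B, far above the other normoxia arrays. H19 probe 9479 read -1.09 on intermittent hypoxia 2 weeks B, far below the other intermittent hypoxia arrays. Wt1 probe 3958 read -0.32 on constant hypoxia 4 weeks B, below the other constant hypoxia arrays.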

How the results depend on the processing

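Without centring, constant hypoxia arrays carried their lower medians into the comparisons (the median of all probes moved by -0.80 for constant hypoxia minus normoxia). There, 5 of 5 probes passed for constant hypoxia minus normoxia over all durations, at 1 week and at 4 weeks, 4 for intermittent minus constant hypoxia, 3 for 2 minus 1 week and 4 for 4 minus 2 weeks of constant hypoxia, and 5 for its mean, and Wt1 reversed to -0.67 for constant hypoxia minus normoxia. The constant hypoxia mean had 0 calls with no filter, with the running median or the 20 nearest probes removed, in the unmoderated test, without both arrays of disagreeing labels, and without both 1-week B arrays. Without both arrays of disagreeing labels 1 probe passed for intermittent hypoxia minus normoxia at 2 weeks, 4 minus 2 weeks of intermittent hypoxia and its mean. The replicate block changed no call (1 call, for the constant hypoxia mean, and 0 elsewhere), and with it Wnt4 in constant hypoxia kept -0.81 (adjusted p = 0.0368). Leaving out each array in turn gave 0 to 1 calls in 11 comparisons and 0 in the other 12. Small differences turned round. For constant hypoxia minus normoxia, these were H19 probe 3422 at 0.074 and 9479 at 0.00754 without both 1-week B arrays, 9479 at 0.00417 and Mest at 0.00989 with the median over every probe with a value, and Wt1 at -0.00299 without the disagreeing arrays. For intermittent hypoxia minus normoxia, they were Wt1 at 0.0318 with the running median, 0.12 without the disagreeing arrays and 0.0865 with the 20 nearest probes removed, and Mest at -0.0025 without the disagreeing arrays. For 4 minus 1 week, they were Wnt4 in constant hypoxia at 0.27, 0.34 and 0.13 under the same 3 alternatives, H19 probe 3422 in normoxia at 0.56 without both 1-week B arrays, and Mest in normoxia at -0.16 with the 20 nearest removed. The cause was not tested. The alternatives without both 1-week B arrays and with the 20 nearest probes removed were chosen after seeing the data. When each array was left out, constant hypoxia minus normoxia ran from -0.44 to 0.20 for H19 probe 3422, -0.15 to 0.10 for 9479, -0.20 to 0.15 for Mest, -1.12 to -0.30 for Wnt4 and -0.0326 to 0.216 for Wt1. Intermittent hypoxia minus normoxia ran from -0.14 to 0.21 for Mest and -0.21 to 0.12 for Wt1. The 4 minus 1 week difference ran from -2.12 to 0.34 for Wnt4 in constant hypoxia and -1.35 to 0.56 for H19 probe 3422 in normoxia. Precision is limited by 2 arrays a group and by ratios without intensities, and 5 of 7 H19 probes were too incomplete to test.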
